A study of Mus musculus with 19 samples.

Results

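The genes described here are 10 genes of epithelial-mesenchymal transition (EMT): the transcription factors Snai1, Snai2, Twist1, Twist2, Zeb1 and Zeb2, the mesenchymal structural genes Vim, Cdh2 and Fn1, and the epithelial repressor Ovol1. They were chosen by name, as the rows whose Ensembl identifier maps to these mouse symbols, and are 10 of the 26796 genes in the table. RNA was sequenced from 19 whole mammary tumours grown from Met1, a mouse mammary tumour line. The mice received extracellular vesicles from neutrophils that had been exposed to 27-hydroxycholesterol (27HC), a cholesterol metabolite (10 tumours), or to the vehicle DMSO (9 tumours). Both groups therefore received neutrophil vesicles, and no group without vesicles was analysed here. The strain, age and sex of the mice, and how the vesicles were given, are not stated in the labels. Nothing there ties tumours to separate mice, so p-values here measure only the spread between these samples.

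EMT is the programme by which epithelial cells lose their junctions and polarity and gain motility and a fibroblast-like shape. Factors of the Snail, Twist and Zeb families drive it, in large part by repressing Cdh1, which encodes E-cadherin, the adhesion protein of epithelial junctions. In a mammary tumour the same factors and structural genes are also made by fibroblasts, pericytes and other stromal cells, so a whole tumour measures the sum of all of them. Fewer cells of a type and less RNA per cell cannot be told apart in such samples.

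The libraries held 28139419 to 41179056 expected counts per tumour. Of the 10 genes, 9 passed the filter on low counts, which kept 15629 genes in all, and Ovol1 did not. In 5 libraries the mean GC content of the transcripts counted was 49.4 to 49.7%, against 50.9 to 52.7% in the other 14. They are the 27HC tumours 1_3, 1_5 and 2_3 and the DMSO tumours 1_5 and 2_3, are called the low-GC libraries below, and were picked by this measure and not by any label. The limit between them was set after seeing the data. Because several of the 10 genes are far from the average in GC content, values are given with these libraries, without them, and after a correction for GC content within each library.

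Fn1 and Vim were the highest of the 10 EMT genes in these tumours, and most epithelial genes were far lower. Levels are compared between genes as CPM per kb. CPM are read counts scaled to the library size after adjustment by TMM, a scaling factor for each library. They were divided by the length of the longest coding transcript in kilobases (mean ± SD, n = 19 tumours). Fn1, which encodes the matrix protein fibronectin, stood at 1133 ± 443 CPM per kb, and Vim, which encodes the intermediate filament vimentin, at 975.5 ± 275 CPM per kb. Among the factors, Snai1 had 134.5 ± 67.3 CPM per kb and Twist1 80.8 ± 24.6 CPM per kb. Cdh2, which encodes N-cadherin, had 23.4 ± 4.40 CPM per kb, against 1.60 ± 0.633 CPM per kb for Cdh1. Zeb1 had 10.5 ± 2.78 and Zeb2 8.36 ± 3.60 CPM per kb. Snai2, Twist2 and Ovol1 had lower means than Cdh1, at 0.790 ± 0.671, 0.520 ± 0.336 and 0.0489 ± 0.0428 CPM per kb.

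In the Snail and Twist families 1 member, Snai1 or Twist1, thus carried nearly all of the transcript signal, whereas Zeb1 and Zeb2 were close in level. Vim lay above Snai1, Twist1 above Cdh2, Cdh2 above Zeb1, Zeb2 above Snai2 and Twist2 above Ovol1 in 19 of 19 tumours. Other neighbours in the order changed places between tumours. Fn1 lay above Vim in 14 of 19 tumours, Snai1 above Twist1 in 13 and Snai2 above Twist2 in 10. In every low-GC library Twist1 lay above Snai1 and Snai2 above Twist2. Outside them Snai1 lay above Twist1 in nearly every tumour. These orders were not tested. Zeb1 lay above Zeb2 in 17 of 19 tumours. With the length of all exons of a gene in place of the longest coding transcript, Vim stood at 451.0 CPM per kb, and Fn1 lay above it in 18 tumours.

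Epithelial genes were checked because the label names a breast tumour. Cdh1 ranged from 76 to 602 counts per tumour. Epcam, an epithelial surface adhesion protein, averaged 2.36 ± 2.05 CPM in 27HC tumours and 3.50 ± 3.84 CPM in DMSO tumours (SD, n = 10 and 9). Of the simple-epithelium keratins, Krt8 averaged 3.71 ± 3.39 CPM in 27HC tumours and 3.35 ± 1.64 CPM in DMSO tumours. Krt18 was far higher than its partner Krt8, at 84.3 ± 27.1 CPM in 27HC tumours and 86.5 ± 30.1 CPM in DMSO tumours. Of 22 epithelial junction and regulator genes, 9 had at least 10 counts in every tumour, and their summed level was 91.4 to 335.5 CPM in 27HC tumours and 119.2 to 315.6 CPM in DMSO tumours. The 10 EMT genes summed to 5658 to 18597 CPM in 27HC tumours and 6132 to 19332 CPM in DMSO tumours. Jup, which encodes the junction protein plakoglobin and was named after its values were seen, averaged 116.3 ± 46.6 CPM in 27HC tumours and 100.2 ± 43.4 CPM in DMSO tumours. Per length, Krt18 at 59.4 ± 19.3 and Jup at 33.9 ± 13.9 CPM per kb (SD, n = 19) lay above the means of Cdh2, Zeb1 and Zeb2, and the other 20 epithelial genes had means of 4.08 CPM per kb or less. How much of either sum came from tumour cells was not tested.

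The plot of levels by tumour shows the wide gap between Fn1 or Vim and the lowest factors, and shows the groups lying over each other for every gene.

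**Figure D1:**
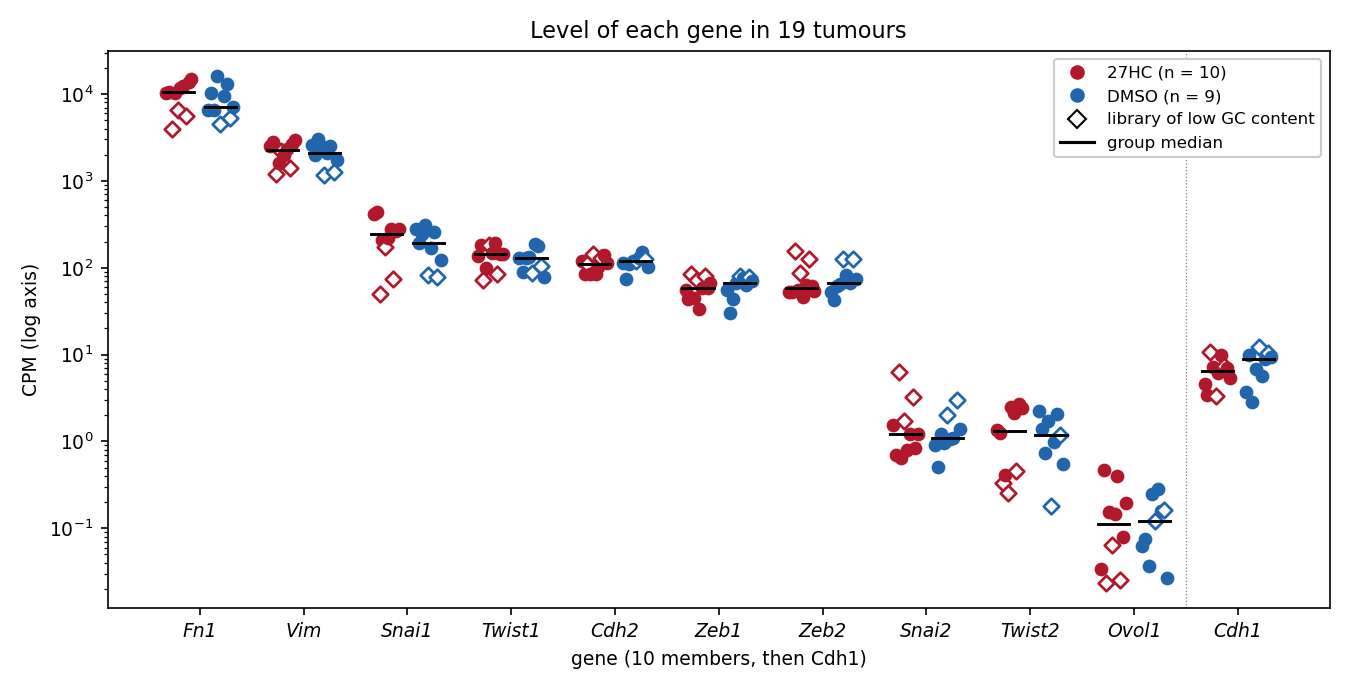
CPM (log axis) of the 10 genes and of Cdh1 in each tumour, 27HC tumours (n = 10) left of DMSO tumours (n = 9) for each gene. Open diamonds are the 5 low-GC libraries and bars are group medians. The groups overlap for every gene, while the diamonds lie at the top for Zeb2 and Snai2 and at the bottom of their group for Fn1 and Snai1, as do 4 of the 5 for Vim.

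The Snail factors are zinc-finger repressors that bind the E-box CACCTG, written CAGGTG on the other strand. Snai1 (ENSMUSG00000042821, GRCm38 chr2:167538195-167542814, plus strand) and Snai2 (ENSMUSG00000022676, GRCm38 chr16:14705852-14709385, plus strand) begin with nearly the same coding bases, which encode the short repressor domain called SNAG, and then part. The first 60 coding bases are shown, from GENCODE M21 on GRCm38, because they show how these related genes differ in base composition. G and C are in capitals.
Snai1, chr2:167538290-167538349, plus strand: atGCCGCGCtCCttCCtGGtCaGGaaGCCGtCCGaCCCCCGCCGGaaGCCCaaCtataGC
Snai2, chr16:14705974-14706033, plus strand: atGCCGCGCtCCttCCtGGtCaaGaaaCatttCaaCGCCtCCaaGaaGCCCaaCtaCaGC
The sequences share 48 of 60 bases, and 25 of the first 27. G and C make up 66.7% of the Snai1 stretch and 53.3% of the Snai2 stretch. Over the whole coding sequence the shares are 64.8% for Snai1 and 49.7% for Snai2, and at the third positions of codons 83.7% and 55.4% in the same order. The 250 bases before the RefSeq start of Snai1 (GRCm38.p6, plus strand) hold 1 such E-box, in capitals.
Snai1 promoter, chr2:167537945-167538194: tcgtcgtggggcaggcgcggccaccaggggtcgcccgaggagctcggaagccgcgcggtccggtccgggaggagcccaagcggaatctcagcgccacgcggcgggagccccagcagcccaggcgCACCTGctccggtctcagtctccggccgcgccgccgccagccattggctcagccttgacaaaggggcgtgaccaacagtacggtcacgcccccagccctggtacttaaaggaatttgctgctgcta
CAGGTG, on either strand, is in 17.2% of 32851 RefSeq promoter windows of this length, and CANNTG, which includes it, in 66.2%. It was not in the windows of Twist1, Twist2, Vim or the 4 starts of Zeb2. Windows of Snai2, Zeb1, Cdh2, Fn1, Ovol1 and Cdh1 were not examined one by one. A match describes these letters and is not a measured binding site.

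Snai1 lay between 49.5 and 438.1 CPM in 27HC tumours (median 244.5), and between 77.8 and 309.9 CPM in DMSO tumours (median 191.2). The 27HC tumours held the 2 highest values, 438.1 and 417.7 CPM in tumours 1_2 and 1_1, and the 2 lowest, so the groups overlapped almost throughout. The log2 fold change of 27HC over DMSO was 0.32 (SE 0.35), with 7 of 10 27HC tumours above the DMSO median. Snai2, the family member more typical of basal mammary cells, lay between 0.639 and 6.32 CPM in 27HC tumours (median 1.21), and between 0.502 and 2.97 CPM in DMSO tumours (median 1.09). Its highest value, in 27HC tumour 1_3, stood apart from the next, 3.22 CPM in 27HC tumour 2_3. The log2 fold change of Snai2 was 0.43 (SE 0.42), and it was -0.06 without that tumour.

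The Twist factors are basic helix-loop-helix proteins of mesoderm and neural crest. Twist1 (ENSMUSG00000035799, GRCm38 chr12:33957671-33959829, plus strand) lay between 71.6 and 191.3 CPM in 27HC tumours (median 143.1), and between 77.7 and 185.5 CPM in DMSO tumours (median 129.3). The ranges of the groups were nearly the same. Its log2 fold change was 0.16 (SE 0.20), with 7 of 10 27HC tumours above the DMSO median. Twist2 (ENSMUSG00000007805, GRCm38 chr1:91801461-91848028, plus strand), a dermal and stromal factor, lay between 0.254 and 2.72 CPM in 27HC tumours (median 1.31), and between 0.182 and 2.24 CPM in DMSO tumours (median 1.17). It rested on 8 to 86 counts per tumour, and its fold between the highest and lowest tumour, 15.0, was the widest of the 9 tested genes. The log2 fold change of Twist2 was 0.18 (SE 0.48).

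The Zeb factors carry zinc-finger clusters at both ends, bind paired E-boxes, and are held down in epithelia by the miR-200 family, which was not measured here. Zeb1 (ENSMUSG00000024238, chromosome 18) lay between 33.2 and 83.9 CPM in 27HC tumours (median 58.7), and between 30.3 and 80.5 CPM in DMSO tumours (median 66.2). Zeb2 (ENSMUSG00000026872, GRCm38 chr2:44983632-45117395, minus strand), which macrophages and NK cells also express, lay between 45.8 and 156.8 CPM in 27HC tumours (median 58.5), and between 42.7 and 126.1 CPM in DMSO tumours (median 66.6). In both groups the highest Zeb2 values were those of the low-GC libraries, which held 87.2 to 156.8 CPM, against 42.7 to 81.6 CPM in the other 14. The log2 fold change of 27HC over DMSO was -0.07 (SE 0.19) for Zeb1 and -0.03 (SE 0.25) for Zeb2.

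The structural genes are the usual readouts of a mesenchymal state. Vim (ENSMUSG00000026728, GRCm38 chr2:13573927-13582826, plus strand) lay between 1214 and 2946 CPM in 27HC tumours (median 2286), and between 1171 and 3056 CPM in DMSO tumours (median 2080). Fn1 (ENSMUSG00000026193, GRCm38 chr1:71585520-71653200, minus strand) lay between 3966 and 14988 CPM in 27HC tumours (median 10432), and between 4464 and 16107 CPM in DMSO tumours (median 7018). Cdh2 (ENSMUSG00000024304, chromosome 18) lay between 83.7 and 142.7 CPM in 27HC tumours (median 111.7), and between 74.8 and 152.1 CPM in DMSO tumours (median 118.7). All 3 genes overlapped between the groups over nearly their whole range, and Cdh2 was the steadiest of the 10, with a fold of 2.03 between its highest and lowest tumour. The log2 fold changes were 0.06 (SE 0.21) for Vim, 0.20 (SE 0.27) for Fn1 and -0.06 (SE 0.14) for Cdh2.

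Ovol1 (ENSMUSG00000024922, GRCm38 chr19:5549136-5560646, minus strand) is a zinc-finger repressor of EMT factors in epithelia and the only one of the 10 genes that acts on the epithelial side. It had 1 to 14 counts per tumour, between 0.0238 and 0.470 CPM in 27HC tumours (median 0.113) and between 0.0265 and 0.282 CPM in DMSO tumours (median 0.121). At this depth no difference was detectable, and Ovol1 was left out of the tests.

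None of the 9 tested genes passed the test between 27HC and DMSO. In the edgeR quasi-likelihood test, with p-values adjusted by the Benjamini-Hochberg method over all genes tested, 0 of 9 passed 0.05, and each had an adjusted p of 1.00. The share of all 15629 genes called was 0.0%, and 354 genes had an unadjusted p under 0.05, none of them among the 9. DESeq2 called 2 genes, 0.0128% of them, and limma-voom 0, again with 0 of the 9. Log2 fold changes were above 0 for 6 of the 9 and below 0 for 3, and their median was 0.16, against 0.01 over all genes tested. The 95% intervals were narrowest for Cdh2, -0.35 to 0.22 on the log2 scale, and widest for Twist2, -0.83 to 1.18. In counts simulated for this design, 63% of genes changed 2-fold and 18% of genes changed 1.5-fold were recovered. Changes of the smaller size would thus mostly have been missed, and some 2-fold changes too. All changed genes averaged above 1 log2 CPM, so the shares do not cover Snai2 and Twist2. Each gene was drawn independently, without the differences that the low-GC libraries share.

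Cdh1, the target that these factors repress, did not pass the test between the groups either. It lay between 3.36 and 10.6 CPM in 27HC tumours (median 6.55), and between 2.82 and 12.1 CPM in DMSO tumours (median 8.88). Only 2 of 10 27HC tumours lay above the DMSO median, but the ranges overlapped, and the log2 fold change was -0.25 (SE 0.27). Of 19 tested epithelial genes, 12 were above 0 and 7 below, with 0 called by edgeR, 0 at an unadjusted p under 0.05 and a median of 0.12. Those with the smallest unadjusted p were Epcam at -0.57 (SE 0.53) and the tight-junction claudins Cldn4 at 0.66 (SE 0.70) and Cldn3 at 0.34 (SE 0.43), all log2 fold changes. These values depended on single tumours: Epcam was at -0.01 without DMSO tumour 1_5 and -0.99 without 27HC tumour 2_2, Cldn4 at 0.24 without 27HC tumour 2_2, and Cldn3 at 0.19 without 27HC tumour 1_2. Of 25 tested genes among other mesenchymal genes and EMT regulators, 17 were above 0 and 8 below, with 0 called, 0 at an unadjusted p under 0.05 and a median of 0.10. Id3 and Id1, inhibitors of helix-loop-helix factors such as the Twist proteins, stood at 0.33 (SE 0.25) and 0.29 (SE 0.23) on that scale. Tnc, which encodes the matrix protein tenascin C, had 0.25 (SE 0.19). Of 10 genes for TGF-beta ligands, receptors and Smads, a main inducer of EMT, 5 were above 0 and 5 below, with a median of 0.03, 0 called and 0 at an unadjusted p under 0.05.

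The titles carry an unexplained first number, 1 or 2, and the effect of 27HC was compared between these sets. The difference in effect, set 2 minus set 1, passed the edgeR quasi-likelihood interaction test for 0 of the 9 genes and for 0.0% of all 15629, with 223 genes at an unadjusted p under 0.05. The smallest adjusted p over all genes was 0.911. Twist2 had the largest difference in size of the 9, at 1.59 on the log2 scale (SE 0.90). No simulated difference of 2-fold or 1.5-fold was recovered by this test (0%), so it says little about these genes.

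Each of the 9 tested genes differed more between the low-GC libraries and the others than between the treatments. Snai1, whose transcript is 59.8% GC, averaged 91.2 ± 47.1 CPM in the 5 low-GC libraries and 263.3 ± 86.1 CPM in the other 14. Snai2, at 42.6% GC, went the other way, with 3.25 ± 1.83 CPM in the low-GC libraries and 1.01 ± 0.294 CPM in the others, and there was no overlap. On the log2 scale, low-GC minus other libraries, the mean difference was -1.59 for Snai1, -1.71 for Twist2, -1.05 for Fn1, -0.73 for Vim and -0.44 for Twist1. It was 1.54 for Snai2, 1.06 for Zeb2, 0.57 for Zeb1 and 0.22 for Cdh2. These are descriptions with no test, since the libraries were chosen from the data.

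Medians over all tested genes fell as GC content rose, which follows from choosing these libraries by low GC content. Single genes did not all keep that order: Twist1, at 59.3% GC, fell less than Twist2. Split by transcript GC content into 4 bins of equal size, from lowest to highest, all tested genes had median differences of 0.95, 0.31, -0.27 and -0.75. The correction for GC content takes out the trend with GC content within each library, so differences that follow this trend shrink by construction. The medians of the 4 bins became 0.01, -0.04, -0.09 and -0.11. After the correction, the difference for Zeb2 came to -0.04, that for Zeb1 to 0.03 and that for Cdh2 to 0.05. Twist1 changed sign, to 0.29. Differences remained for Twist2 at -1.54, Snai1 at -0.82, Fn1 at -0.78, Vim at -0.41 and Snai2 at 0.64. Twist2 and Fn1 have transcripts near the average, 52.6% and 53.5% GC. What set these 5 libraries apart was not tested. The plot against transcript GC content shows the 9 genes and Cdh1 before and after the correction.

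**Figure D2:**
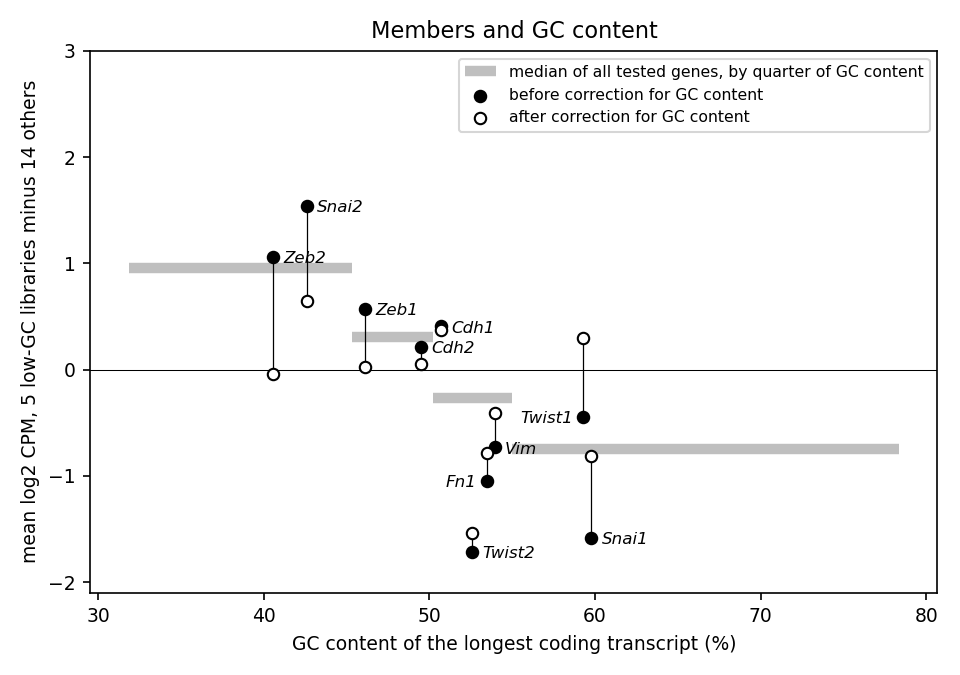
Mean log2 CPM in the 5 low-GC libraries minus that in the other 14, against the GC content of the longest coding transcript (%), for the 9 tested genes and Cdh1. Filled points are before and open points after the correction for GC content, and grey bars are medians of all tested genes in 4 bins of GC content (0.95, 0.31, -0.27 and -0.75). Zeb1, Zeb2 and Cdh2 move to near 0 with the correction, and Twist2, Snai1, Fn1 and Snai2 keep a difference.

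The EMT factors did not all rise and fall together when every library was counted. Over all 19 tumours, log2 CPM fell into 2 opposed sets, Snai1 with Vim, Fn1 and the Twist genes on 1 side, and Zeb1, Zeb2 and Snai2 on the other. Much of this opposition was shared with the low-GC libraries, and over 19 tumours it cannot be told apart from that split. Snai1 and Zeb2 had a Pearson r of -0.87 (Spearman rho -0.70) over 19 tumours, -0.36 (rho -0.27, permutation p = 0.202) over the 14 other libraries, and -0.24 after the GC correction. Snai1 and its paralogue Snai2 had r = -0.77 over 19 tumours (rho -0.53), 0.05 over 14 (rho 0.13) and -0.57 after the correction. Snai2 and Zeb2 had r = 0.90 over 19 tumours (rho 0.81), 0.56 over 14 (rho 0.54) and 0.14 after the correction.

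Some relations held in all 3 settings. Snai1 and Vim had r = 0.90 over 19 tumours (rho 0.84), 0.71 over the 14 tumours (rho 0.66, permutation p adjusted over all genes 0.0348) and 0.77 after the GC correction (adjusted permutation p 0.00103). Without the 2 tumours farthest from the median of Vim, r was 0.86, 0.60 and 0.70 in the same settings. Zeb1 and Cdh2 had r = 0.74 over 19 tumours (rho 0.59, adjusted permutation p 0.0126), 0.77 over 14 (rho 0.67, adjusted permutation p 0.0286) and 0.71 after the correction (adjusted permutation p 0.0247). Without the 2 tumours farthest from the median of Cdh2, these were 0.54, 0.71 and 0.57. Such adjusted p-values are common in these data. With Vim, 60.3% of all genes passed 0.05 over 19 tumours, 14.6% over 14 and 45.5% after the correction, and with Cdh2 10.4%, 7.48% and 4.69%.

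Other pairs depended on the setting. Zeb1 and Zeb2 had r = 0.81 over 19 tumours (rho 0.92) and 0.82 over 14 (rho 0.82), but -0.04 after the GC correction (rho 0.31). Snai1 and Fn1 had r = 0.80 over 19 tumours (rho 0.75), 0.36 over 14 (rho 0.48) and 0.71 after the correction. Vim and Fn1 had r = 0.70 over 19 tumours (rho 0.57), 0.15 over 14 (rho 0.12) and 0.54 after the correction. Snai1 and Twist1 had 0.72, 0.54 and 0.10 in the same order, with rho of 0.57, 0.37 and 0.19. Twist1 and Twist2 had 0.52, 0.53 and -0.03, with rho of 0.45, 0.36 and -0.05. The maps of pairwise correlation give all 9 genes and Cdh1 in the 3 settings.

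**Figure D3:**
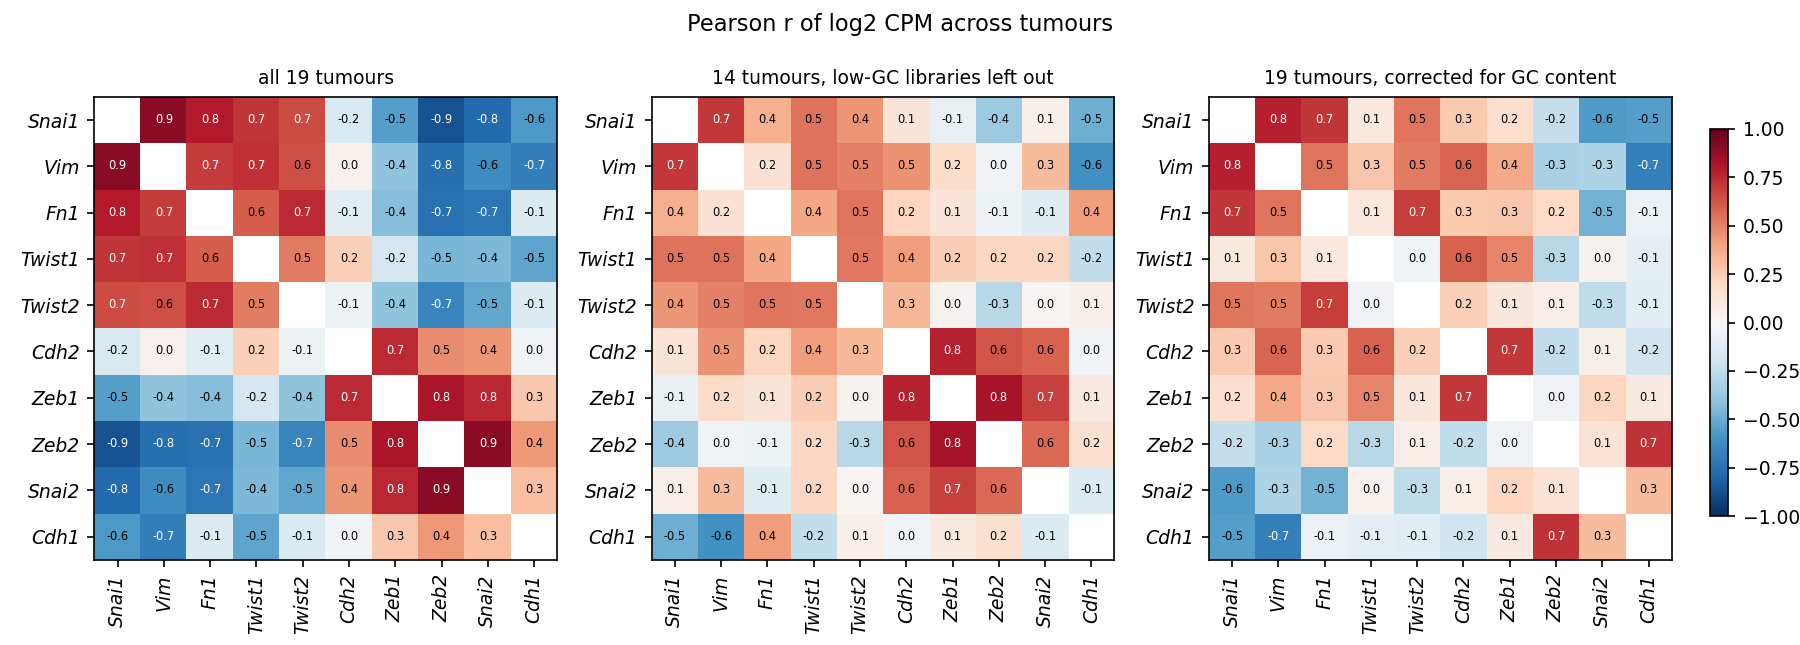
Pearson r of log2 CPM between the 9 tested genes and Cdh1, over all 19 tumours (left), over 14 tumours without the low-GC libraries (middle) and over 19 tumours after the correction for GC content (right). Red is positive and blue negative. The strong blue blocks at the left between Snai1, Vim or Fn1 and Zeb2 or Snai2 are weak in the middle map, while Snai1 with Vim and Zeb1 with Cdh2 stay red in all 3.

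Tumours with more Cdh1 had less Vim. This was the only one of the 9 genes that passed the edgeR quasi-likelihood test of a slope on log2 CPM of Cdh1, with treatment in the model: Vim changed by -0.47 log2 units per log2 unit of Cdh1 (SE 0.14), with an adjusted p of 0.0397. Of all 15628 genes tested, 11.2% were called, 5.07% with a slope above 0 and 6.16% with a slope below 0, so 1 of 9 is close to the background. In the DMSO tumour lowest in Cdh1, 1_3 at 2.82 CPM, Vim was at its highest, 3056 CPM. In the DMSO tumour highest in Cdh1, 1_5 at 12.1 CPM, Vim was at its lowest, 1171 CPM, and that tumour is a low-GC library.

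Pearson's r of Vim with Cdh1 was -0.69 over 19 tumours (permutation p = 0.00151, adjusted over all genes 0.0339, which 9.06% of all genes passed at 0.05) and Spearman's rho -0.76. It was -0.68 without the 2 tumours farthest from the median of Cdh1. Within treatments r was -0.59 over the 27HC tumours and -0.78 over the DMSO tumours, and within the sets by first title number it was -0.85 for 1 and -0.45 for 2. Over the 14 tumours outside the low-GC libraries r was -0.60 (permutation p = 0.0236, adjusted over all genes 0.164, with 0.825% of genes passing), and after the GC correction -0.68 (adjusted permutation p 0.0283). The direction held in each of these settings, but the edgeR call did not hold in all. After the GC correction Vim was still called, with a slope of -0.39 (edgeR adjusted p 0.0387). That fit called 2431 genes in all, against 1754 in the main fit, so a call was more common there. Without the low-GC libraries the slope of Vim was -0.20 (edgeR adjusted p 0.255), and 1.89% of all genes were called. Leaving out any 1 of 7 tumours also ended the call, namely the 27HC tumours 1_1, 1_2 and 1_3 and the DMSO tumours 1_1, 1_3, 1_5 and 2_4, with adjusted p between 0.0581 and 0.0886.

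The factors that repress Cdh1 had slopes of either sign. Slopes on Cdh1 were negative for Snai1 at -0.69 (SE 0.27, edgeR adjusted p 0.0841) and Twist1 at -0.33 (SE 0.16, edgeR adjusted p 0.138). They were positive for Zeb2 at 0.43 (SE 0.18, edgeR adjusted p 0.0983), Snai2 at 0.66 (SE 0.30, edgeR adjusted p 0.123) and Zeb1 at 0.20 (SE 0.15, edgeR adjusted p 0.341), and none of these passed the threshold. Cdh2, Fn1 and Twist2 had Pearson r of -0.03, -0.14 and -0.13 with Cdh1. For Snai1 r was -0.58 over 19 tumours (rho -0.57) and -0.49 over the 14 tumours. DESeq2 also called Snai1 (adjusted p 0.0443) while calling 19.2% of all genes, and limma-voom called Vim alone of the 9 while calling 12.2%. Without 27HC tumour 1_5, a low-GC library that was low in Cdh1 at 3.36 CPM, 4 of the 9 were called, Snai1, Snai2, Zeb2 and Vim, with 5649 genes called in all.

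Twist1 and Zeb2 were the genes whose correlation with Cdh1 moved most with the GC correction. For Twist1 r was -0.53 over 19 tumours (rho -0.51), -0.25 over the 14 tumours and -0.09 after the correction. For Zeb2 r was 0.43 over 19 tumours (rho 0.45), 0.16 over the 14 tumours (rho 0.22), and 0.73 after the correction (rho 0.71, permutation p 0.00031, adjusted over all genes 0.0147). The correlation of Zeb2 was above 0 in each setting, but only the corrected value passed the threshold, as did 16.1% of all genes. After the correction its edgeR slope was 0.23 with an adjusted p of 0.0334, in a fit that called 2431 genes. The plots of Vim, Snai1 and Zeb2 against Cdh1 show the individual tumours.

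**Figure D4:**
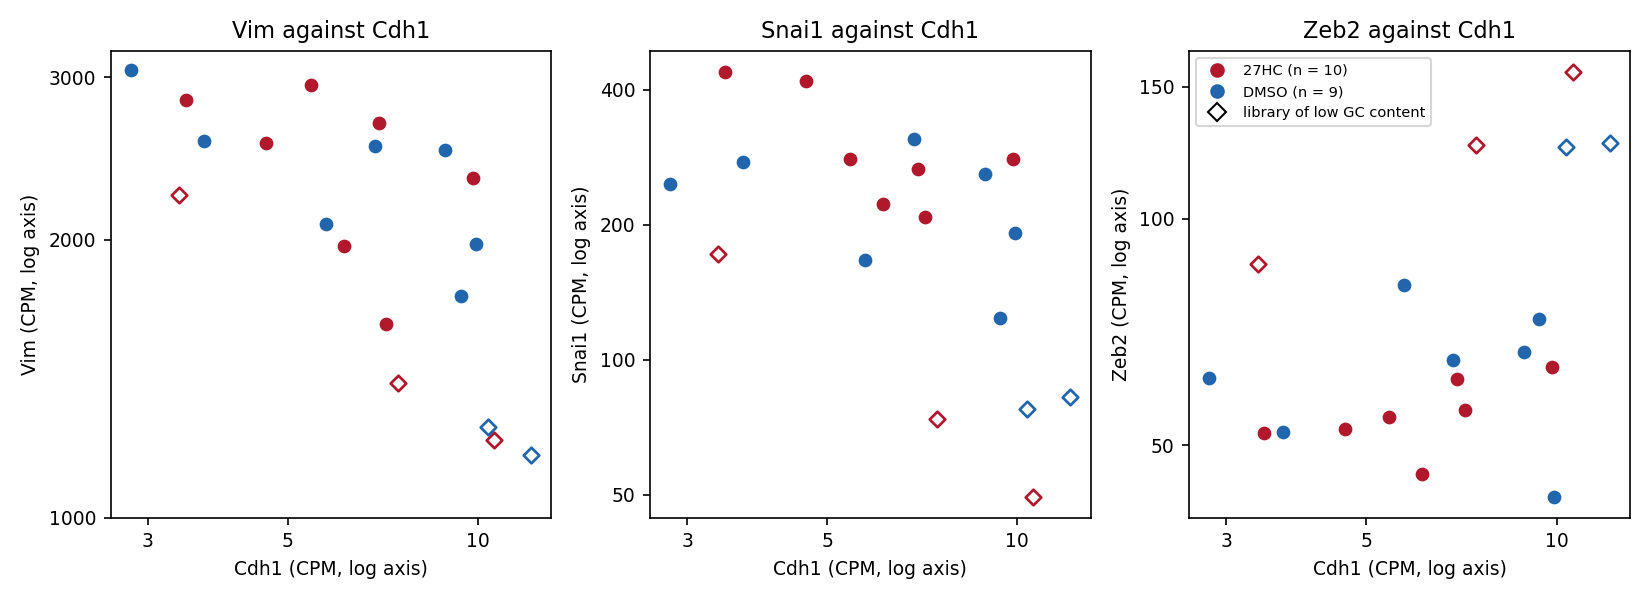
CPM of Vim, Snai1 and Zeb2 against CPM of Cdh1 (log axes), 1 point per tumour, 27HC in red (n = 10) and DMSO in blue (n = 9), with low-GC libraries as open diamonds. Vim and Snai1 are lower where Cdh1 is higher (r = -0.69 and -0.58), and 4 of the 5 diamonds lie at the low end of both. For Zeb2 the diamonds lie above the other tumours.

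The other genes set against Cdh1 included both epithelial genes and immune cell markers. Of 18 tested epithelial genes other than Cdh1, 14 had a slope above 0, and 2 were called by edgeR: Epcam at 1.74 (SE 0.31, adjusted p 0.00997) and Grhl2, a transcription factor that maintains Cdh1 in epithelia, at 0.79 (SE 0.23, adjusted p 0.0375). Of 25 other mesenchymal genes and regulators 13 were above 0 and 12 below, and Id1 and Id3 were called lower. Of 8 macrophage markers 7 were above 0, with Adgre1 and Csf1r called higher. All 8 T and NK cell markers were above 0, with Cd4 and Ncr1 called higher. The medians were 0.39, 0.02, 0.35 and 0.46 in the order given, against 0.02 over all genes and -0.03 over the 9 EMT genes. These counts stand beside the 5.07% of all genes called higher and the 6.16% called lower in this fit.

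Immune marker scores moved with the same genes. A score is the mean z-score of log2 CPM over a list of markers. The macrophage score had r = 0.68 with Cdh1 over 19 tumours (rho 0.75, adjusted permutation p 0.0538) and 0.63 over the 14 tumours. With Vim it had r = -0.49, -0.58 over the 14 tumours and -0.76 after the GC correction (adjusted permutation p 0.00323). With Snai1 it had -0.45, -0.60 and -0.79 in the same order, and with Zeb2 0.16, 0.0046 and 0.57. The T and NK cell score had r = -0.83 with Twist1 (rho -0.84, adjusted permutation p 0.00601), -0.73 with Snai1 (adjusted permutation p 0.0126) and -0.63 with Vim (adjusted permutation p 0.0340). Over the 14 tumours these were -0.73, -0.62 and -0.33. With the macrophage score 2.48% of all genes passed 0.05 over 19 tumours, 0.519% over the 14 tumours and 39.0% after the correction. With the T and NK cell score these shares were 25.1%, 0.23% and 14.7%. Passing values were thus common for the macrophage score after the correction and for the T and NK cell score over 19 tumours.

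With the macrophage score in the model, the slope of Vim on Cdh1 was -0.43 (edgeR adjusted p 0.168), and with the T and NK cell score it was -0.35 (edgeR adjusted p 0.208). Of all genes, 13 and 49 were then called. The summed level of the 8 macrophage markers was 1282 to 2234 CPM in 27HC tumours and 1417 to 2543 CPM in DMSO tumours, and all 8 had at least 10 counts in every tumour. That of the 8 T and NK cell markers was 32.4 to 100.9 CPM in 27HC tumours and 38.0 to 135.0 CPM in DMSO tumours, 7 of them with at least 10 counts in every tumour. The part of these cells in the relation between Vim and Cdh1 was not tested beyond these fits.

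Fibroblast markers were all measured, but they did not form a single axis in these tumours. The 14 markers summed to 3580 to 7992 CPM in 27HC tumours and 2818 to 6722 CPM in DMSO tumours, and all 14 had at least 10 counts in every tumour. Between them, 54 of 91 pairs had a positive correlation, with a median r of 0.14 and a range from -0.73 to 0.94. Dcn, which encodes decorin, and Pdgfrb, the platelet-derived growth factor receptor beta of fibroblasts and pericytes, stood on opposite sides. Zeb2 had r = 0.90 with Dcn and -0.85 with Pdgfrb, and Snai1 had -0.77 with Dcn and 0.85 with Pdgfrb. Over the 14 tumours these were 0.66, -0.21, -0.22 and 0.42. Col1a1, the main fibrillar collagen gene, had r = 0.83 with Vim and 0.80 with Snai1, and 0.63 and 0.61 over the 14 tumours. Large correlations with these markers were common over 19 tumours. An adjusted permutation p under 0.05 was reached by 64.1% of all genes with Dcn, 63.8% with Pdgfrb and 53.5% with Col1a1. In the same order the shares were 1.38%, 0.0% and 0.064% over the 14 tumours, and 0.0%, 29.7% and 0.0% after the GC correction.

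None of the 9 EMT genes passed the edgeR quasi-likelihood test of a slope on the fibroblast score with treatment in the model. Of all 15615 genes tested, 0.0704% were called, all 11 of them higher, and 2052 had an unadjusted p under 0.05, among them Zeb1 and Zeb2. DESeq2 called 31 genes and limma-voom 11, again with 0 of the 9. Slopes were 1.00 for Snai2 (SE 0.49), 0.61 for Zeb2 (SE 0.29), 0.53 for Zeb1 (SE 0.21) and 0.26 for Cdh2 (SE 0.16), with an edgeR adjusted p of 0.356 for Snai2, Zeb2 and Zeb1 and 0.364 for Cdh2. Without DMSO tumour 1_5 both Zeb genes passed, with slopes of 0.68 for Zeb1 and 0.85 for Zeb2 (edgeR adjusted p 0.0319 and 0.0321), as did 3573 genes in all. Without the 5 low-GC libraries, which include that tumour, the slopes were 0.39 and 0.21 and 0 genes were called. After the GC correction they were 0.13 for Zeb1 and 0.07 for Zeb2 (edgeR adjusted p 0.963 and 0.971).

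Zeb1, Snai2, Zeb2 and Cdh2 also had the highest correlations with the fibroblast score over 19 tumours, an order that did not hold over the 14. Pearson's r over 19 tumours was 0.52 for Zeb1 (rho 0.52), 0.48 for Snai2 (rho 0.42), 0.43 for Zeb2 (rho 0.44) and 0.38 for Cdh2 (rho 0.39). It was 0.21 for Twist2, 0.05 for Twist1, 0.01 for Fn1, -0.24 for Vim and -0.32 for Snai1, and the smallest permutation p adjusted over all genes was 0.355. Over the 14 tumours Twist1 and Twist2 both came to 0.56, Fn1 to 0.50, Zeb1 to 0.48, Vim to 0.17 and Snai1 to 0.08. Vim and Snai1, which ran together across tumours, were the genes with the lowest r in both settings. With a score of 4 markers (Pdgfra, Pdgfrb, Col1a1 and Dcn) the slopes of Snai2 and Zeb2 turned to -0.84 and -0.40. On the score of 14 markers, the slope of Snai2 was 0.19 without the low-GC libraries (edgeR adjusted p 0.844). After the GC correction it was -0.12 (edgeR adjusted p 0.978).

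The genes most like each member over the 19 tumours were named by a rule, the 3 highest Pearson r among tested genes of at least 1 log2 CPM. For Twist1 these were Irx5, Dmrta2 and Otud1 (r = 0.96, 0.94 and 0.92), and over the 14 tumours their r was 0.95, 0.93 and 0.89. For Cdh2 they were Lmo7, Sdc2 and Man2a1 (r = 0.92, 0.90 and 0.89), and over the 14 tumours 0.93, 0.92 and 0.90. For Zeb1 they were Tcf12, Cdk12 and Hnrnpk, each with r = 0.96, and Tcf12, an E-protein gene on the list of EMT regulators, kept 0.95 over the 14 tumours. For Snai1 they were Gas2l1, Eva1b and Tmem98, each with r = 0.97, and for Vim Higd2a, Rpl37a and Myl6b, each with r = 0.97. Zeb2 had Zfp445, Smg1 and Slfn5, each with r = 0.98, and Fn1 had D630045J12Rik, Fosl2 and Nav1 (r = 0.96, 0.96 and 0.94). Snai2 had Abraxas2, Ms4a4d and Gm48443 (r = 0.94, 0.92 and 0.92), which over the 14 tumours were 0.80, 0.65 and 0.63. Twist2 had Adra2a, Loxl1 and Crabp1 (r = 0.92, 0.92 and 0.89), of which Loxl1 encodes an enzyme that cross-links elastin. These values are the top of a ranking of all genes and carry no test.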

How the data were processed

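Bulk RNA sequencing of 19 tumours was used. Per the labels' protocols, libraries were stranded and made from poly(A) RNA. Tools named in the submitters' processing notes are kallisto 0.44.0, edgeR and limma, and the build is GRCm38. The authors deposited expected counts per gene. How transcripts were summed is not given in the sources used here. Expected counts were rounded to whole numbers, which allowed count tests. Such estimates can split reads between near-identical transcripts. Symbols were matched for 26290 of 26796 identifiers, and lengths, coordinates and GC content came from GENCODE M21.

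Each comparison used the edgeR quasi-likelihood test (version 4.0.16 in R 4.3.3) with TMM, the default filter (11167 genes left out) and Benjamini-Hochberg adjustment at 0.05. Log2 CPM used a prior count of 2. Correlations had 100000 permutations, two-sided, adjusted over all genes tested for each gene or score. The fibroblast score used 14 markers, and Cdh1 or the score entered with treatment as a term. The GC correction was a loess per library (span 0.3). Alternatives were DESeq2 1.42.0, limma-voom (limma 3.58.1), other scaling and filters, title numbers as block or covariate, subsets, cell scores as covariates and leaving out each tumour. The fits were tested on simulated counts.

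The genes and lists were chosen with earlier results of these data known. Named genes were the 10 members, Cdh1, Pdgfra, Pdgfrb, Col1a1, Dcn, Epcam, Krt8 and Krt18, the 4 genes of smallest unadjusted p in the epithelial and in the mesenchymal list, the 3 genes most like each member, and list genes called against Cdh1. One of these genes is not reported here. Pericyte, endothelial, skeletal muscle, Schwann cell and adipocyte lists were also measured. No library was duplicated: the lowest chi-square per degree of freedom within a group was 39.0. Depth limits Ovol1, Twist2 and Snai2 most.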

Additional observations from a re-analysis of the deposited data

Results flagged for a closer look

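In 24 genes, each checked in both groups, 4 single values stood apart from the rest of their group by Dixon's test. Chance alone gives such a value in about 5% of groups, and 48 groups were checked. Snai2 was at 6.32 CPM in 27HC tumour 1_3, a low-GC library, against 3.22 CPM in the next 27HC tumour. Epcam was at 7.68 CPM in 27HC tumour 2_2, against 3.34 CPM in the next 27HC tumour. Cldn4 was at 2.58 CPM in the same 27HC tumour 2_2, against 1.20 CPM in the next. Epcam was at 13.2 CPM in DMSO tumour 1_5, a low-GC library and the tumour with the most Cdh1, against 4.63 CPM in the next DMSO tumour.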

How the results depend on the processing

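The genes called between 27HC and DMSO stayed at 0 in every alternative except DESeq2, which called 2, and 0 of the 9 EMT genes were called in any. Large changes came from leaving out single tumours, from the low-GC libraries, the subsets and the cell scores. For the relation to Cdh1 they also came from DESeq2, RLE size factors, the filter and the first title number as covariate. The subsets also hold fewer tumours, and the causes of these changes were not tested. For the relation to Cdh1, genes called were 3006 with DESeq2, 879 with RLE size factors, 680 with no filter, 2742 with a filter at 1 log2 CPM, 662 with the first title number as covariate, 977 for first number 1 alone, 0 for number 2, for the 27HC tumours and for the DMSO tumours alone, 288 without the low-GC libraries, 49 with the T and NK cell score and 13 with the macrophage score. With the GC correction 2431 genes were called. Leaving out each tumour gave 264 (without 27HC tumour 1_2) to 5649 (without 27HC tumour 1_5). EMT genes called were 2 with DESeq2 and with the GC correction, and 0 with RLE size factors, no filter, each subset, no low-GC libraries and either immune score, and leaving out each tumour gave 0 to 4. For the fibroblast score, genes called were 31 with DESeq2, 19 with no filter, 22 with a filter at 1 log2 CPM, 2 with the first number as covariate, 7 with the T and NK cell score, 1 with the GC correction, and 0 in each subset and without the low-GC libraries. Leaving out each tumour gave 0 (without 27HC tumour 1_4) to 3573 (without DMSO tumour 1_5) genes and 0 to 2 EMT genes.

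Title numbers did not clearly pair the tumours. Over 9 shared numbers the correlation of deviations ran from -0.43 to 0.78, and it was above 0.1 in 5. In 2 pairs a tumour correlated best with its own number. The check cannot exclude pairing, since the low-GC libraries also shape these correlations. With the title number as a replicate block, 2701 genes and 3 EMT genes (Snai1, Twist1 and Vim) were called against Cdh1, 0 genes against the fibroblast score and 0 between treatments. Under the replicate block the log2 fold change of Twist2 was -0.16, that of Krt8 -0.45 and that of Cldn4 -0.10.

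Directions that turned belong to values that had not passed a test, apart from correlations between the EMT genes. For 27HC over DMSO, log2 fold changes turned for first number 1 alone in Twist2 (-0.81), Zeb1 (0.15), Zeb2 (0.25), Vim (-0.080), Cdh2 (0.042), Fn1 (-0.057), Pdgfra (0.047), Col1a1 (-0.097), Dcn (0.011), Krt8 (-0.78), Cldn4 (-0.68) and Cldn3 (-0.21), and for number 2 alone in Snai2 (-0.18), Epcam (0.13) and Krt18 (0.18). With the first number as covariate Twist2 was at -0.055. With the T and NK cell score they turned in Snai1 (-0.054), Twist1 (-0.020), Twist2 (-0.092), Zeb2 (0.070), Vim (-0.086), Pdgfrb (-0.10), Krt8 (-0.24) and Cldn3 (-0.12). With the macrophage score they turned in Twist1 (-0.083), Twist2 (-0.068), Zeb2 (0.024), Vim (-0.12) and Cdh1 (0.0089). Without the low-GC libraries Snai2 was at -0.032, Epcam at 0.54 and Krt18 at 0.022. limma-voom gave -0.65 for Krt8 and -0.61 for Cldn4. With the muscle score Krt8 was at -0.0019 and Pdgfra at 0.0078, and with the GC correction they were at -0.12 and 0.022. Leaving out each tumour gave -0.14 to 0.037 for Krt18, -0.13 to 0.26 for Krt8, -0.089 to 0.028 for Pdgfra, -0.043 to 0.19 for Pdgfrb, -0.062 to 0.68 for Snai2, -0.0087 to 0.33 for Twist2, -0.031 to 0.14 for Vim, -0.16 to 0.0033 for Zeb1 and -0.25 to 0.084 for Zeb2.

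Correlations with Cdh1 turned without the low-GC libraries for Snai2 (-0.14, slope -0.018), Twist2 (0.051) and Fn1 (0.42), in the 27HC tumours for Twist2 (0.026), and for number 2 in Cdh2 (0.10). Leaving out each tumour gave -0.17 to 0.099 for Cdh2 and -0.32 to 0.032 for Twist2. Correlations with the fibroblast score turned without the low-GC libraries for Snai1 (0.085) and Vim (0.17), with the GC correction for Vim (0.016), in the 27HC tumours for Twist1 (-0.10) and Fn1 (-0.15), for number 1 in Twist1 (-0.032), Twist2 (-0.032) and Fn1 (-0.095), and for number 2 in Twist1 (-0.17), Twist2 (-0.14) and Fn1 (-0.35). Leaving out each tumour gave -0.056 to 0.11 for Fn1 and -0.072 to 0.19 for Twist1. Slopes turned with 4 markers for Snai2 (-0.84) and Zeb2 (-0.40), and with the GC correction for Snai2 (-0.12). Between genes, Snai1 with Snai2 turned without the low-GC libraries (0.053), and Twist1 with Twist2 (-0.033) and Zeb1 with Zeb2 (-0.036) with the GC correction.

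The first title number has no stated meaning, the low-GC libraries are split 3 to 2 between 27HC and DMSO, and whole tumours do not tell tumour cells from stroma. Per-length levels of Zeb1, Zeb2, Vim and Cdh2 depend on which transcript is counted.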

Other observations

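Other gene groups that a whole tumour can hold were measured in the same fits. Of 10 skeletal muscle genes, all 10 had a log2 fold change of 27HC over DMSO above 0, with a median of 1.66. By edgeR 0 of them were called and 3 had an unadjusted p under 0.05, against 2.27% of all genes tested. The summed level of the 10 muscle genes ran from 4.40 to 3565 CPM in 27HC tumours and from 4.84 to 1323 CPM in DMSO tumours. The skeletal muscle score had r of -0.24 with Snai1, -0.18 with Vim and 0.21 with Zeb2 over 19 tumours. Of 8 macrophage markers all 8 were below 0 (median -0.17), and of 8 T and NK cell markers 7 were below 0 (median -0.23), with 0 called and 0 at an unadjusted p under 0.05 in either list. Against Cdh1, 1 of 8 endothelial genes, the claudin Cldn5, was called lower by edgeR. Of 14 fibroblast genes 2, Col3a1 and Pdpn, were called higher. Among all genes in this fit, 6.16% were called lower and 5.07% higher. Of 6 pericyte genes 4 were above 0 for 27HC over DMSO, and the pericyte score had r of 0.69 with Vim over 19 tumours, 0.61 over the 14 tumours and 0.35 after the GC correction. Of 8 endothelial genes 4 were above 0, of 6 Schwann cell genes 1 was, and of 5 tested adipocyte genes 0 were, again with 0 called.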
